A study of Zea mays subsp. mays and Zea mays subsp. parviglumis and Zea luxurians with 126 samples.

Results

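The 6 nanoPARE libraries described here came from anthers of ago18 heterozygous maize plants, 3 of 2 mm anthers (meiotic) and 3 of 5 mm anthers (postmeiotic). They were chosen by genotype and anther length from the 63 libraries with cut-site tables in the series, and no measured value entered the choice. NanoPARE sequences the 5′ ends of RNAs, so that the downstream product of small RNA-guided slicing appears as a pile of reads starting at the cut. Each library had a table of miRNA-guided and a table of phasiRNA-guided candidate sites, with the reads that start at the site per 1000000 reads (RPM), an Allen score for the pairing of small RNA and target (lower is better paired, and no listed site exceeded 6), and an adjusted p for the site. A site is called passing below an adjusted p of 0.05, an interaction is a pair of small RNA and target with a passing site, and a pair is called positive at a length when it passed in at least 2 of 3 libraries. Sites that a table does not list were entered as 0.

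All 6 libraries shared the genotype ago18-HT in a background labelled as mostly B73. These plants were heterozygous for mutations of the 3 AGO18 genes, namely small CRISPR-Cas9 deletions in ago18a and ago18b and a Mu transposon insertion in ago18c. They were siblings of the triple homozygous mutants (ago18-HM), which gave 6 libraries of the same lengths for comparison. The replicates were described as coming from distinct plants, and whole anthers were used, so all cell layers are pooled. No wild-type library entered a comparison. The alleles could not be checked in these tables: AGO18c was not listed, AGO18a had 3 sites in 1 library at 0.0460 RPM or less, AGO18b had 1 site in 2 libraries at up to 1.37 RPM, and none of these sites passed.

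In grass anthers, the 22-nt miR2118 cuts the noncoding precursors of 21-PHAS loci, and the 22-nt miR2275 cuts those of 24-PHAS loci. The cut RNA is copied into double strands and processed from the cut end in regular steps, by DCL4 into 21-nt phasiRNAs before meiosis and by DCL5 into 24-nt phasiRNAs during meiosis. AGO18 proteins are grass-specific members of the Argonaute family, the proteins that carry small RNAs and slice their targets. PhasiRNAs can in turn cut their own precursor (in cis), other PHAS precursors (in trans) or transcripts of other genes.

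The sequences on which the comparison turned are given 5′ to 3′ with bases 2 to 8, the seed, in capitals. The first is the most abundant small RNA of the locus 24PHAS_53395 (chr10:72453877-72454822, plus strand, B73 RefGen_v5), which is letter for letter the sequence that the study's annotation calls miR2275c-3p in 2 other lines, and the second is miR2118c.
24PHAS_53395: uUCAGUUUccucuaauaucuca
miR2118c: uUCCUAAUgccucccauuccua
The third is the most abundant small RNA of the locus 21PHAS_54597 (chr10:120346275-120348687, minus strand), which is also 22 nt long and differs from miR2118c at 2 positions, 1 of them in the seed.
21PHAS_54597: uUCCUGAUgccucucauuccua
The next 4 are miRNAs whose transcript targets are described in full, and none shares its seed with another.
miR160c: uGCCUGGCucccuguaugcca
miR394: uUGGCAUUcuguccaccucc
miR396b-5p: uCCACAGGcuuucuugaacug
miR528-5p: uGGAAGGGgcaugcagaggag
The last is the most abundant small RNA of 24PHAS_28373 (chr5:33502497-33503024), the source of the only cis cut that passed in all 5 mm libraries.
24PHAS_28373: aGAAGCAAacggaucagcugcagc

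The libraries held 3096 to 4203 distinct listed sites each. The RPM value taken as 1 read implied 7441916 to 9958771 reads per library at 2 mm and 7175969 to 10861997 at 5 mm. That value was inferred from the smallest step between RPM values, which was taken as a fraction of a read. The median listed site rested on 1 read in every library (0.0921 to 0.139 RPM), and 82.0% to 86.5% of the values were whole reads within 0.015 read. 2 mm replicate 3 stood apart from the other 2 mm libraries. Over 2113 sites its log2 values correlated with those of 2 mm replicates 1 and 2 at 0.30 and 0.35, against 0.67 between these 2 libraries. The 5 mm libraries correlated with each other at 0.39 to 0.53, so by this measure alone its distance was modest. With the 5 mm libraries it correlated at 0.12 to 0.16, against -0.07 to -0.03 for the other 2 mm libraries. These correlations are across sites that share genes and isoforms, kept for being listed in at least 3 of the 6 libraries. Sites listed at 1 length only, with 0 entered at the other, lower the correlations between lengths. Its implied depth was the highest of the 2 mm libraries. Its stage and genotype could not be checked independently in these tables, so that its label remains in doubt. The main results are therefore also given without it. For comparison, miR2118 on 21-PHAS loci passed in 119 and 102 interactions in the 0.5 mm (premeiotic) libraries of the same genotype, and in no more than 4 at 2 mm or 5 mm. This count sets the 0.5 mm libraries apart but cannot tell 2 mm from 5 mm, so it does not settle the label of 2 mm replicate 3.

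The main difference between the lengths lay in miR2275 cuts of 24-PHAS precursors. Passing miR2275 interactions on 24-PHAS loci numbered 66, 59 and 2 in 2 mm replicates 1 to 3, and 1, 0 and 0 in the 5 mm libraries. All 2 mm libraries exceeded all 5 mm libraries, but 2 mm replicate 3 lay close to the 5 mm range. The difference, 5 mm minus 2 mm, was -4.19 on the log2(count + 1) scale, and -5.65 without 2 mm replicate 3. With 3 libraries against 3 the exact two-sided permutation test cannot go below 0.1, which was its value here with and without that library, and the p adjusted over 28 tests was 0.667. In whole anthers, fewer cells of a type and less RNA per cell cannot be told apart.

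**Figure D1:**
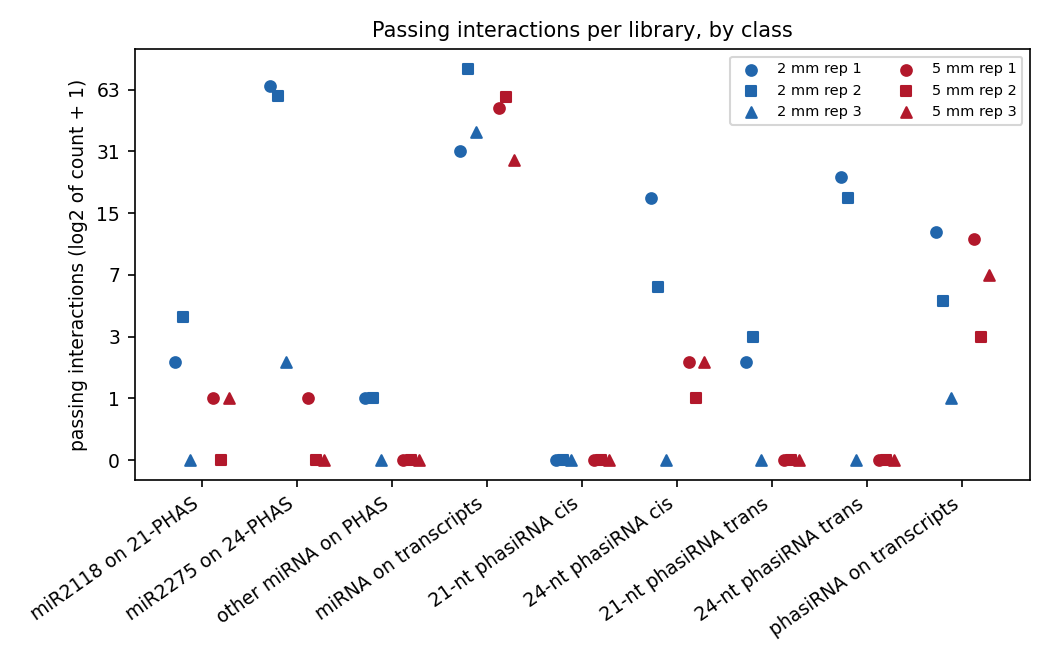
Passing interactions per library (vertical axis, log2 of the count plus 1, labelled with the count) in 9 classes of small RNA and target, with 2 mm in blue and 5 mm in red and the symbol giving the replicate. miR2275 on 24-PHAS loci stood at 66 and 59 in 2 mm replicates 1 and 2, at 2 in 2 mm replicate 3, and at 0 or 1 at 5 mm, while miRNA interactions on transcripts overlapped between lengths.

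Reads at the passing miR2275 positions differed by more than their number. Their sum was 2441 RPM in 2 mm replicate 1, 814 in replicate 2 and 0.703 in replicate 3, against 0.125, 0 and 0 at 5 mm. Replicates 1 and 2 thus differed from replicate 3 by more than they differed from each other. The difference was -9.80 on the log2(RPM + 0.1) scale and -13.39 without 2 mm replicate 3 (exact permutation p = 0.1 both times, the smallest possible, adjusted p = 0.667). Listed miR2275 sites, passing or not, numbered 81, 81 and 44 at 2 mm and 8, 13 and 19 at 5 mm. Here 2 mm replicate 3 too exceeded every 5 mm library, and the difference was -2.30 on the log2(count + 1) scale, or -2.59 without that library (exact permutation p = 0.1 both times, adjusted p = 0.667).

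A total of 67 sites on 67 loci passed for miR2275 in at least 1 library, and 58 interactions were positive at 2 mm and 0 at 5 mm. Of the loci, 66 belonged to the 154 meiotic 24-PHAS loci annotated in B73 and 1 to the 75 premeiotic ones, a share of 42.9% against 1.33%. They lay on 9 of the chromosomes, with 16 on chromosome 1, 14 on chromosome 4 and 9 on chromosome 6, and none on chromosome 3. The Allen scores ran from 2 to 6 with a median of 4. Interactions with miR2275a-3p were the most frequent, at 23 in both 2 mm replicates 1 and 2, followed by a miR2275 named only by a prediction tool, at 18 and 14, and miR2275b-3p and c-3p, listed as 1 entry, at 17 and 14.

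The site with the most reads lay in 24PHAS_32590 (chr5:219764853-219765833). Its miR2275a-3p cut held 269, 92.2 and 0.201 RPM at 2 mm and 0.251, 0 and 0.184 RPM at 5 mm. Only 2 mm replicates 1 and 2 rose above the 5 mm range. In 24PHAS_29317 (chr5:72206311-72207739), cut by miR2275d-3p, the values were 128, 32.1 and 0.301 RPM against 0 in each 5 mm library, and the site passed in all 3 libraries of 2 mm. The only other site that did so was that of 24PHAS_21195, which was also the only one to pass at 5 mm, in 1 library. In 24PHAS_4228 (chr1:181489486-181490424) they were 97.2, 46.7 and 0.1004 RPM against 0.125, 0.139 and 0, and 24PHAS_48860 (chr9:26391380-26392661) held 84.5, 34.9 and 0.1004 RPM against 0, 0 and 0.0921.

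The 67 sites varied together among the 2 mm libraries. Their median was 25.1 RPM in 2 mm replicate 1 and 7.24 RPM in replicate 2, but 0.0171 RPM in replicate 3. At 5 mm the median was 0 in each library and the highest value of any site was 0.368 RPM. Of 66 sites listed in both 2 mm replicates 1 and 2, 64 were higher in replicate 1, by a median ratio of 3.26 (quartiles 2.48 and 4.02), and their order was nearly the same (Spearman's rho = 0.94 across sites, which share a miRNA family and libraries). The 5 highest sites took 27.2% of the reads in replicate 1 and 32.5% in replicate 2. In 26 of 67 sites every 2 mm library exceeded every 5 mm library, and in 66 of 67 when 2 mm replicate 3 was left out. Over all 2113 sites fitted, 14.0% lay apart in this direction, and 16.0% of the 1497 sites fitted without that library, of which only 29 were among the 67. The sites were chosen for passing, and all but 1 passed at 2 mm only, so the choice itself favoured this direction and nothing is read from the counts.

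**Figure D2:**
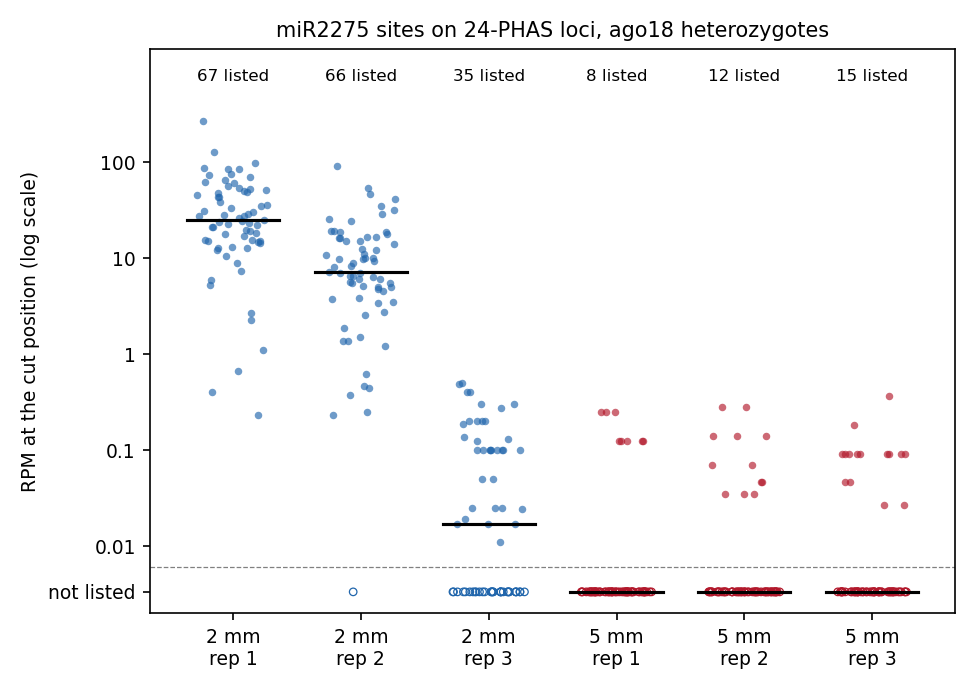
RPM (log scale) at the 67 miR2275 sites on 24-PHAS loci in each of the 6 libraries, with a point for each site, open circles on the lowest line for sites that were not listed, and a bar for the median. The sites spread around 25.1 and 7.24 RPM in 2 mm replicates 1 and 2, and stayed at or below 0.502 RPM in 2 mm replicate 3 and 0.368 RPM at 5 mm.

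Reads that fit several loci were divided between them, so neighbouring loci of near-identical sequence are not independent. The loci 24PHAS_14666, 24PHAS_14668 and 24PHAS_14669 on chromosome 2 each held 0.0251 RPM in 2 mm replicate 3 and 0.0348 RPM in 5 mm replicate 2, in each case less than 1 read. Their values in 2 mm replicate 1 ran from 12.1 to 29.9 RPM and cannot be assigned to the loci with certainty.

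The fit across sites (limma with a mean-variance trend on log2(RPM + 0.1), Benjamini-Hochberg adjustment over 2113 sites listed in at least 3 of the 6 libraries) took in 45 of the 67 miR2275 sites. Of these 0 passed an adjusted p of 0.05, although 43 had an unadjusted p under 0.05, and the lowest adjusted p was 0.05003. In this fit 1.56% of all sites were called lower at 5 mm. The coefficient was -6.51 ± 2.14 (SE, adjusted p = 0.0784) for 24PHAS_32590. The same coefficient passed when no filter was applied (adjusted p = 8.09e-06), over sites listed at both lengths (2.01e-08) and when all ago18 libraries were fitted (0.0255). Without 2 mm replicate 3, 29 of the 67 sites entered, and limma called 28 of them lower at 5 mm, against 3.34% of the 1497 sites of that fit. Then the coefficient of 24PHAS_32590 was -9.52 ± 0.61 (SE, adjusted p = 7.35e-08) and that of 24PHAS_4228 was -8.59 ± 0.60 (adjusted p = 1.60e-07). A site then had to be listed in at least 1 library of 5 mm to enter, so the 38 sites that no 5 mm library listed were outside this fit. Since the 67 sites had been chosen for passing, nearly all at 2 mm, the number called describes them and is no test against the other sites. The adjusted p-values of 24PHAS_32590 and 24PHAS_4228 without 2 mm replicate 3 are no test either. The library left out was the low 2 mm library at both sites. With all 6 libraries the limma adjusted p of 24PHAS_4228 was 0.0866.

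In the homozygous mutants the same 67 sites held few reads at 2 mm. In ago18-HM 2 mm anthers 41, 24 and 31 of them were listed and 16, 6 and 6 passed, with summed values of 30.8, 2.95 and 7.61 RPM. In ago18-HM 5 mm anthers 9, 4 and 10 were listed, with sums of 1.20, 1.05 and 1.56 RPM. The sum over the same sites in heterozygotes was 2454, 826 and 5.23 RPM at 2 mm, so 2 mm replicate 3 lay within the range of the mutants. Since the sites were chosen in heterozygotes, the levels are given without a test.

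The change from 2 mm to 5 mm in passing miR2275 interactions was -4.19 in heterozygotes and -2.46 in homozygous mutants on the log2(count + 1) scale. Their difference of -1.72 gave an exact permutation p of 0.285 over 400 exchanges of genotype within length (adjusted p = 0.8 over 8 classes). Without the heterozygous 2 mm replicate 3 the difference was -3.19, with p = 0.04 over 200 exchanges in the exact permutation test and an adjusted p of 0.267. In no class did the adjusted p of this test fall below 0.05.

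Other cuts of PHAS precursors by miRNAs were few. miR2118 passed on 21-PHAS loci in 2, 4 and 0 interactions at 2 mm and 1, 0 and 1 at 5 mm, a difference of -0.64 on the log2(count + 1) scale (exact permutation p = 0.5). The groups overlapped through 2 mm replicate 3, without which the difference was -1.29 (p = 0.1, exact permutation test). Of the 430 annotated 21-PHAS loci, 7 had a passing miR2118 or miR2275 site in any of the 6 libraries, 6 of them for miR2118. The only miR2118 interaction positive at 2 mm was that of miR2118d with 21PHAS_21386 (chr4:8029613-8030912), at 0.403, 0.624 and 0 RPM against 0 in each 5 mm library. A miR2275a-3p site also passed on a locus annotated as 21-PHAS, 21PHAS_4278 (chr1:182705008-182707629), with 51.9, 15.1 and 0.201 RPM at 2 mm and 0 in each 5 mm library. The miR2275 site of the neighbouring 24PHAS_4279 (chr1:182707726-182709474) held the same values in all 6 libraries, and the position in 21PHAS_4278 lies past its annotated end, so the cuts cannot be told apart and no separate 21-PHAS cut is shown.

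Trans cuts attributed to 24-nt phasiRNAs followed the miR2275 sites. They passed in 23, 18 and 0 interactions at 2 mm and in 0 at 5 mm (difference -2.94, exact permutation p = 0.4, and -4.42 with p = 0.1 without 2 mm replicate 3). Of 23 distinct pairs, 18 came from 24PHAS_53395, and all 18 fell on positions that also passed for miR2275. The most abundant small RNA of that locus has the 22-nt sequence of miR2275c-3p shown above, so these pairs cannot be told apart from miR2275 cuts. Without this source locus, a choice made after the data were seen, 5, 1 and 0 interactions remained at 2 mm, at summed values of 0.718, 0.374 and 0 RPM. The pair of 24PHAS_30716 with 24PHAS_30735 aside, they came from 24PHAS_35076 and passed only in 2 mm replicate 1. There they held 0.121 RPM or less, below 1 read. The trans site in 24PHAS_35075 had the same values in all 6 libraries as the cis site of 24PHAS_35076. Those in 24PHAS_35082 and 24PHAS_35083 also shared their values, at 0.00134 RPM in that library. The cuts within each such pair of sites cannot be told apart. As with 24PHAS_53395, 3 of the 4 trans pairs of 21-nt phasiRNAs came from 21PHAS_54597, whose 22-nt RNA resembles miR2118c, and fell on positions that also passed for miR2118.

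Cis cuts by 24-nt phasiRNAs passed in 18, 6 and 0 interactions at 2 mm and in 2, 1 and 2 at 5 mm. The groups overlapped because of 2 mm replicate 3, and the difference of -0.96 on the log2(count + 1) scale became -2.14 without it (exact permutation p = 0.5 and 0.1). The sites held few reads. The highest value, 1.21 and 0.998 RPM in 2 mm replicates 1 and 2, lay in 24PHAS_53482 (chr10:76665159-76666918) and was not listed elsewhere. The other cis pairs positive at 2 mm were those of 24PHAS_182, 24PHAS_4228 and 24PHAS_30716. No 21-nt phasiRNA cut in cis was listed in any of the 6 libraries.

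Most cis positions in these loci lay at regular steps from the miR2275 cut. Of the 22 loci with a passing cis site, 10 also had a passing miR2275 site, and a further locus had a passing trans site from 24PHAS_30716. In these 11 loci the position of the phasiRNA cut in the tested sequence was 84 to 588 nt beyond that of the miR2275 cut, and in 9 of them the distance was a multiple of 24 nt plus 12. Examples were 24PHAS_4228, where the phasiRNA cut lay 180 nt from the miR2275 cut, and 24PHAS_30716, where it lay 204 nt from it. The exceptions were 24PHAS_4208 and 24PHAS_4282, with remainders of 21 and 1. The strand on which positions are counted was not stated, and several of these loci have no annotated strand. The 11 sites were all listed in 2 mm replicates 1 or 2 and in no other library. A cis candidate position depends on where the phasiRNA of the locus pairs, and 24-nt phasiRNAs are made in regular steps from the miR2275 cut. A shared remainder can thus follow from the choice of candidates, and nothing is read from it. The remainder was computed after the positions were seen and is given as a description.

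**Figure D3:**
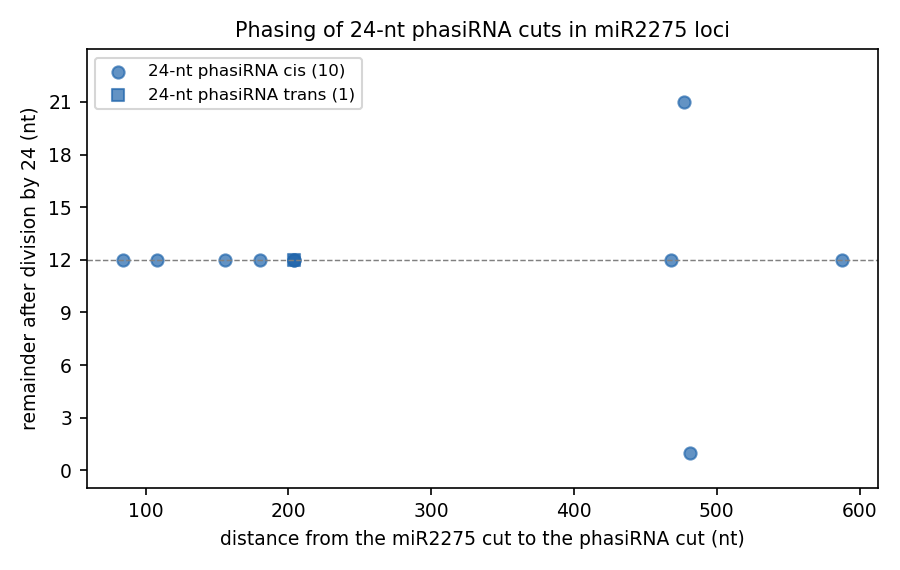
Distance in nt from the miR2275 cut to the passing phasiRNA cut in the same locus (horizontal axis) against its remainder after division by 24 (vertical axis), with circles for cis and a square for trans sites. Of 11 sites, 9 lie on the line at 12, and the other two at 1 and 21.

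Among the cis cuts, only that of 24PHAS_28373 passed in more than 1 library of 5 mm. In this locus the cis site at position 776 held 1.07, 0 and 0 RPM at 2 mm and 0.251, 0.139 and 0.0921 RPM at 5 mm, passing in all 3 libraries of 5 mm. These 5 mm values correspond to 2, 1 and 1 reads. A site assigned to the same small RNA in the gene Zm00001eb222570 had the same values in all 6 libraries, so cuts of the locus and of the gene cannot be told apart. In another gene, Zm00001eb047170, its site held 0.403, 0 and 0.602 RPM at 2 mm and 0.251, 0.139 and 0 at 5 mm, and was positive at both lengths. A cut by a phasiRNA of 21PHAS_12086 in Zm00001eb122210 was listed in every library, at 0.537, 2.87 and 1.10 RPM against 3.01, 1.67 and 1.57, passing in 1 library of 2 mm and 3 of 5 mm. Its limma difference was 0.67 ± 0.80 (SE, adjusted p = 0.669, and 0.61 with 0.680 without 2 mm replicate 3).

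Passing phasiRNA interactions on transcripts numbered 12, 5 and 1 at 2 mm and 11, 3 and 7 at 5 mm. The groups overlapped, with a difference of 0.43 on the log2(count + 1) scale that turned to -0.28 without 2 mm replicate 3 (exact permutation p = 0.7 and 0.8). Counted as pairs, 2 were positive at 2 mm and 3 at 5 mm. A site assigned to 24PHAS_53395 in Zm00001eb167350 held 12.2, 2.59 and 0.0723 RPM at 2 mm and 0, 0 and 0.0129 RPM at 5 mm, the same order of libraries as at the miR2275 sites. Its limma difference was -4.10 ± 1.32 (SE, adjusted p = 0.0730), and -5.79 ± 0.83 (adjusted p = 0.000154) without 2 mm replicate 3. The library left out was the low 2 mm library at this site, so the second value is no test. The same position was also listed for miR2275, and the most abundant small RNA of 24PHAS_53395 has the sequence of miR2275c-3p. This site therefore cannot be told apart from a miR2275 cut.

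Cuts of transcripts by miRNAs did not differ in number between the lengths beyond the spread of libraries. Passing interactions numbered 31, 80 and 39 at 2 mm and 51, 58 and 28 at 5 mm, a difference of -0.07 on the log2(count + 1) scale (exact permutation p = 0.9, adjusted p = 0.933). Without 2 mm replicate 3 the difference was -0.19 (exact permutation p = 0.9), and it turned to 0.13 at an adjusted p below 0.01. The summed passing RPM, with each isoform counted, was 105, 43.5 and 18.2 at 2 mm and 11.5, 30.7 and 5.36 at 5 mm (exact permutation p = 0.2 with and without 2 mm replicate 3). Counted once per gene at its highest passing site, miR2275 sites in transcripts held 84.6, 23.1 and 2.21 RPM at 2 mm and 0 at 5 mm. These measures differ, so the share of miR2275 in the sum cannot be read from them. Listed sites numbered 1661 to 2326 at 2 mm and 1971 to 2224 at 5 mm.

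At the level of pairs, 37 miRNA interactions on transcripts were positive at 2 mm and 30 at 5 mm, with 13 shared, or 35.1% of the first list and 43.3% of the second. Counted as genes per miRNA family, 6 were positive at both lengths, 9 at 2 mm and 8 at 5 mm. Of the 9, 2 repeat the values of miR2275 cuts in 24-PHAS loci. Passing sites were found for 16 named families at 2 mm and 12 at 5 mm, 11 of them shared. Outside the miR2275 family, no site of these genes exceeded 1.61 RPM, so that most rested on few reads, and being positive at 1 length does not show a difference between lengths.

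miR160, which targets auxin response factors (ARF), had the most genes. Zm00001eb225570, an ARF gene, held 0, 0.167 and 0.1004 RPM at 2 mm and 0.251, 0.557 and 0.276 RPM at 5 mm. All 5 mm libraries exceeded all 2 mm libraries, but the limma difference was 1.34 ± 0.64 (SE, adjusted p = 0.237, and 1.44 with 0.288 without 2 mm replicate 3). The ARF genes Zm00001eb221620 and Zm00001eb273540 were also positive at both lengths, Zm00001eb045640 at 5 mm, and Zm00001eb185290 and Zm00001eb247720 at 2 mm. The unannotated target Zm00001eb426740 held 0.501, 0.279 and 0 RPM at 5 mm and was not listed at 2 mm.

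The targets of miR396 are growth-regulating factors (GRF), and 1 of its 3 positive genes was listed in enough libraries to be tested. Zm00001eb071830 was not listed at 2 mm and held 0.376, 0.418 and 0.0921 RPM at 5 mm, passing in all 3 libraries. The limma difference of 1.86 ± 0.58 (SE) had an adjusted p of 0.0692, and of 0.166 without 2 mm replicate 3. This site entered the fit only because all 3 libraries of 5 mm listed it, so the filter itself favoured this direction. Zm00001eb430300 likewise was listed only at 5 mm (0.501, 0.418 and 0 RPM), whereas Zm00001eb251820 was listed only at 2 mm, at 1 read in each of replicates 1 and 2.

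miR171, which targets GRAS-family regulators of meristems, was positive at both lengths on Zm00001eb074460 (cut by miR171a-3p), with 0.269, 0 and 0.1004 RPM at 2 mm and 0.321, 0.336 and 0.0921 RPM at 5 mm. Its other genes, Zm00001eb429450 and Zm00001eb379340, were positive at 5 mm. The miR394 target Zm00001eb143020 held 0, 0.125 and 0.301 RPM at 2 mm and 0.376, 0.557 and 0.184 RPM at 5 mm. In Arabidopsis miR394 acts on an F-box gene, and the maize gene has no transcription factor family in the study's list. The limma differences of both genes, 0.75 ± 0.69 and 1.10 ± 0.71 (SE), had adjusted p-values of 0.596 and 0.441, and were 0.77 and 1.57 without 2 mm replicate 3 (0.679 and 0.236).

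Among the other families, a miR169d-3p-like RNA was positive on Zm00001eb102500 at both lengths, miR164 on Zm00001eb135910 and miR156 on Zm00001eb232050 at 5 mm, and miR169i-5p on Zm00001eb256650 at 2 mm. miR528, a grass miRNA linked to copper proteins, cut Zm00001eb324900 at 1.61, 0.624 and 0.301 RPM in 2 mm and 0.251, 0.279 and 0.0921 RPM in 5 mm anthers. The groups did not overlap, and the limma difference was -1.43 ± 0.74 (SE, adjusted p = 0.298, and -1.92 with 0.166 without 2 mm replicate 3). The gene Zm00001eb317710, cut by an unnamed miRNA, held 0.403, 0.374 and 0.201 RPM at 2 mm and was not listed at 5 mm (limma adjusted p = 0.0644). Its site entered the fit only because all 3 libraries of 2 mm listed it, so the filter itself favoured this direction.

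Of the transcripts assigned to miR2275, 2 repeated PHAS cuts. Zm00001eb387460 held 52.0, 15.2 and 0.201 RPM and Zm00001eb032400 held 14.3, 6.48 and 0.1004 RPM at 2 mm, and neither was listed at 5 mm. These values were identical in all 6 libraries to those of the miR2275 sites in 24PHAS_50012 and 24PHAS_4229, so cuts of these genes cannot be told apart from cuts of those loci. In Zm00001eb035800 the values were 1.07, 1.37 and 2.21 RPM at 2 mm and 0, 0.139 and 0 RPM at 5 mm, so that 2 mm replicate 3 was the highest. This site fell by 3.57 ± 0.67 (SE) at 5 mm, with an adjusted p of 0.0243 in limma (0.0240 without that library). It was called in 11 of 15 alternatives, and not without 2 mm replicate 2 (adjusted p = 0.0618) or 5 mm replicate 3 (0.0684). Nor was it called with a pseudocount of 1 RPM or over passing sites only.

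**Figure D4:**
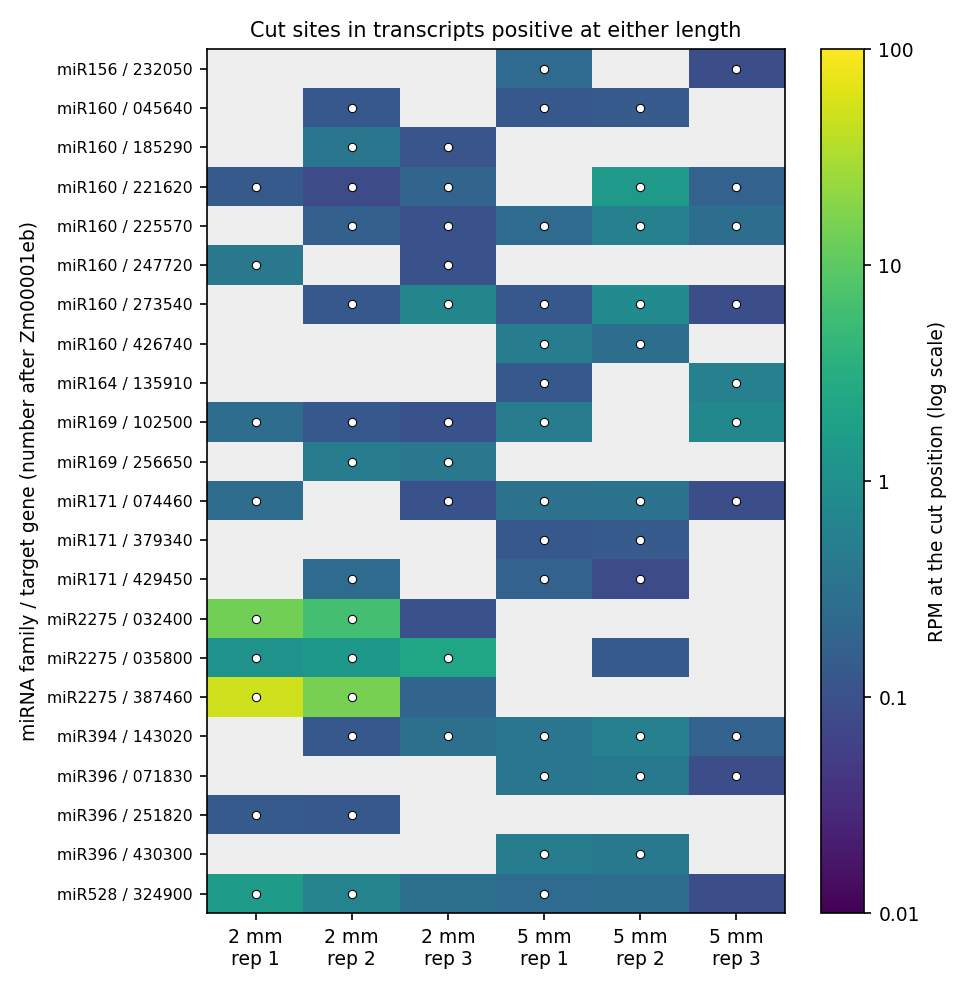
RPM at the cut position (colour, log scale, grey where not listed) of 22 pairs of miRNA family and gene that were positive at 2 mm or 5 mm, by library, with a white dot where the site passed. The values of Zm00001eb387460 and Zm00001eb032400, high in 2 mm replicates 1 and 2, repeat those of the miR2275 sites in 24PHAS_50012 and 24PHAS_4229, and the other families stayed at or below 1.61 RPM at both lengths.

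Across all listed sites, limma called 29 higher at 5 mm (1.37% of 2113) and 33 lower, in 22 and 17 genes, all of them transcripts. Of these sites 7 had passed the authors' test in at least 1 library, 6 lower and 1 higher, among 108 passing sites in the fit. The 6 lower sites were isoforms of Zm00001eb035800 and of Zm00001eb026350, a miR168 site with 1.75, 0.499 and 0.402 RPM at 2 mm that was not listed at 5 mm (-3.04 ± 0.67, SE, limma adjusted p = 0.0494). The latter was called in 5 of 11 alternatives, and not without 5 mm replicate 2 (adjusted p = 0.0876) or 3 (0.0858). The higher one was a phasiRNA site in Zm00001eb358050 (0, 0.125 and 0.0532 RPM against 1.63, 1.11 and 0.986, limma adjusted p = 0.0362). It was called in 8 of 15 alternatives, and not without 2 mm replicate 1 (adjusted p = 0.05006) or 2 (0.0618), or 5 mm replicate 2 (0.0510) or 3 (0.0642). With a pseudocount of 1 RPM, and over passing sites only, limma called none of these 7 sites. The other called sites were 5′ ends at candidate positions that passed the authors' test in no library. The lowest adjusted p in limma, 0.00913, was shared by 16 sites in 12 genes, and the 2 genes with the lowest unadjusted p in each direction are given here. Zm00001eb163880 held 0 in each 2 mm library and 4.14, 18.0 and 4.97 RPM at 5 mm, and rose by 6.19 ± 0.76 (SE). Zm00001eb208750 held 0 at 2 mm and 3.84, 1.89 and 5.92 RPM at 5 mm, and rose by 5.17 ± 0.67 (SE). Sites at 0 in all libraries of 1 length entered the fit only because all 3 libraries of the other length listed them, and over sites listed at both lengths 3 were called higher instead of 29. Zm00001eb303940 held 1.86, 2.72 and 1.48 RPM at 2 mm and 0 at 5 mm, and fell by 4.36 ± 0.60 (SE). Zm00001eb372830 held 1.88, 1.87 and 1.91 RPM at 2 mm and 0 at 5 mm, and fell by 4.31 ± 0.58 (SE).

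Taking the site with the most reads for each of 28 miRNA families, only 5 were passing sites, those of miR160, miR168, miR528, miR2118 and miR2275. The miR528 site in Zm00001eb423780 was not listed at 2 mm and held 0.376, 4.71 and 0.0921 RPM at 5 mm. For the other 23 families the most abundant 5′ end at a candidate position was not called a cut in any library.

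The number of listed sites per listed target stayed close to 1. For miRNA sites on 24-PHAS loci it was 1.12, 1.07 and 1.07 at 2 mm and 1.00, 1.08 and 1.00 at 5 mm (exact permutation p = 0.3), and on 21-PHAS loci it was 1 in every library. For phasiRNA sites on transcripts it was 1.043, 1.055 and 1.040 at 2 mm and 1.031, 1.035 and 1.035 at 5 mm. These groups did not overlap, and the difference was -0.012 sites per transcript, or -0.015 without 2 mm replicate 3 (exact permutation p = 0.1 both times, adjusted p = 0.667).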

How the data were processed

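The authors used B73 RefGen_v5 as the genome for these nanoPARE libraries and searched for cuts with EndCut, using miRNAs and phasiRNAs of B73. The deposited tables give, per candidate site, RPM (reads at the site per 1000000 reads, with fractions of a read where reads fit several positions), an Allen score and an adjusted p-value by the authors. A fold of site signal over transcript background, also deposited by the authors, was not used. Software versions of that pipeline are not given in the sources used here. PHAS positions and small RNA sequences were copied from the study's B73 annotation. Cut positions count from the start of the tested sequence. In 31 of 165 listed loci a listed position exceeded the annotated length, so tested sequences reached beyond the annotated loci. Where they start and end relative to the loci is not stated in the sources used here. The 5028 listed gene IDs had 0 matches in the RefSeq gene table, so IDs are printed.

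Sites (target and position) listed in at least 3 of 6 libraries were fitted with limma 3.58.1 in R 4.3.3 (trend, log2(RPM + 0.1), Benjamini-Hochberg). Differences are therefore on that scale and understate changes of low sites. Counts and sums per library were compared with exact two-sided permutation tests in Python 3.11.15, adjusted over 28 tests, and both genotypes by exchanging genotype labels within length. Members, lists and tests were chosen with earlier results of these data known. Genes were named if lowest in adjusted p in each direction, positive at 5 mm, highest in RPM in their miRNA family, the leading phasiRNA source, or AGO18, and genes positive at 2 mm were added. Unannotated IDs outside these were limited to 2 per direction. Other thresholds, pseudocounts, filters, scalings, the replicate block and leaving out each library were tried.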

Additional observations from a re-analysis of the deposited data

How the results depend on the processing

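Of 449 alternatives, 384 kept the direction and the side of the threshold, or a count within 1.5 times. No permutation test reached an adjusted p below 0.05 (lowest 0.12). The permutation tests between lengths cannot go below a p of 0.1, so the side of the threshold was fixed in advance there. For them only the direction could change, and the number kept is no measure of robustness. The limma counts of 29 sites higher and 33 lower at 5 mm became 165 and 210 with a pseudocount of 0.01 RPM, 0 and 0 with 1 RPM (480 unadjusted p under 0.05), 128 and 215 when all ago18 libraries were fitted, 3 and 50 over sites listed at both lengths, 0 and 0 over passing sites only (61 unadjusted), and 66 and 68 with 1 site per gene and set of values (added after the data were seen). Without a filter 99 were lower. Leaving out a library gave 0 to 30 higher and 1 to 69 lower: 20 and 20 without 2 mm replicate 1, 9 and 1 without 2 mm replicate 2, 30 and 50 without 2 mm replicate 3, 2 and 69 without 5 mm replicate 1, 4 and 28 without 5 mm replicate 2, and 0 and 18 without 5 mm replicate 3 (267 unadjusted). Dividing by the median ratio moved the median site from -0.06 to 0.10 (log2) and left 29 and 24. Same-numbered libraries did not deviate together (r = -0.01, -0.02 and -0.03), so the numbers pair nothing, and the replicate block gave 19 sites higher and 47 lower, and -4.19 with p = 0.25, its smallest possible, for miR2275 on 24-PHAS loci.

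For miRNAs on transcripts the difference in interactions was 0.13 at an adjusted p below 0.01, 0.0619 at Allen scores up to 4, and -0.35 to 0.32 without 1 library. That in listed sites was 0.0941 at Allen scores up to 4 and -0.162 to 0.0803 without 1 library. For phasiRNAs on transcripts the ranges without 1 library were -0.28 to 1.07 (interactions), -1.83 to 0.50 (summed RPM) and -0.0800 to 0.166 (listed sites, -0.0624 at Allen scores up to 4). Listed miR2118 sites ranged from -0.460 to 0.0398. Listed sites per transcript ranged from -0.0074 to 0.00028 for miRNAs, and for phasiRNAs were 0.012 at Allen scores up to 4, where those per 24-PHAS locus did not differ (0). The genotype difference turned to -0.30 for miR2118 and 0 for other miRNAs on PHAS at an adjusted p below 0.01. Without 1 library it ranged from -0.29 to 0.87 for miR2118, 0 to 0.50 for other miRNAs on PHAS, -0.29 to 0.49 for miRNAs on transcripts and -1.80 to 0.32 for 24-nt cis cuts. Positive pairs numbered 97 (miRNA, 2 mm), 30 (miRNA, 5 mm), 25 (phasiRNA, 2 mm) and 4 (phasiRNA, 5 mm). In at least 1 library they numbered 180, 98, 63 and 19, and in all 3 libraries 8, 12, 0 and 3. Without 1 library they ranged from 10 to 75, 13 to 22, 0 to 24 and 3 to 4. The causes were not tested. The sites in 24PHAS_32590 and 24PHAS_4228 were called in 5 of 15 alternatives each, the replicate block among them (adjusted p = 0.0488 and 0.0386). Most sites rest on 1 or a few reads.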
